A study of Homo sapiens with 6 samples.

Results

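The genes described here are 10 genes of the circadian clock: the transcriptional repressors BHLHE40, BHLHE41, PER1, PER2, PER3, CRY1 and CRY2, the nuclear receptors NR1D1 and NR1D2, and the output activator DBP. They were chosen by name from the list of 44591 genes in each library, and all 10 were found in all 6 libraries. RNA was collected from A2780, a human ovarian cancer cell line with a wild-type genotype by its label, grown in DMEM with fetal bovine serum. In the treated group, 3 cultures received human recombinant CRMP2 (r-CRMP2) at 40 ng/ml for 48 h, and 3 untreated cultures (0 ng/ml) served as the control at the same 48 h. CRMP2 is a microtubule-associated protein, here added to the medium. There was no group that received another protein. Poly(A) RNA was sequenced, and each library held between 21888530 and 25711353 counts. The labels do not say that the cultures were started separately. The p-values set the difference between groups against the spread among the 3 libraries within each, which may not be that of separate cultures.

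The clock of mammalian cells is a feedback loop of transcription. CLOCK (or its paralog NPAS2) pairs with ARNTL, also called BMAL1, and binds E-box sequences in front of the PER, CRY, NR1D, DBP and BHLHE40/41 genes. PER and CRY proteins then return to the nucleus and block that pair, BHLHE40 and BHLHE41 (DEC1 and DEC2) compete for the same E-boxes, and NR1D1 and NR1D2 (REV-ERB alpha and beta) repress ARNTL itself. BHLHE40 and BHLHE41 are also known as genes that respond to hypoxia. The study sequenced these cells to ask which signaling pathways r-CRMP2 acts on. All cultures were taken at 1 time, and nothing in the sources used here says that the cells had been synchronized, so a change of level and a shift of phase of a rhythm cannot be told apart.

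Of the 10 genes, 7 rose with r-CRMP2, CRY1 fell, and BHLHE41 and PER3 did not pass the test. NR1D1 rose 8.36-fold, BHLHE40 4.99-fold, PER1 4.95-fold and DBP 2.65-fold, while CRY2, NR1D2 and PER2 rose between 1.69-fold and 1.79-fold. The test was edgeR's quasi-likelihood test across the 16222 genes that passed a filter on low counts, with Benjamini-Hochberg adjustment and a threshold of 0.05. An SE is the standard error of a log2 fold change. All 10 genes passed the filter. At that threshold 58.2% of all genes tested passed, with 28.2% higher and 30.1% lower. At the stricter rule of the study, which adds a log2 fold change over 1 in size, 4 of the 10 genes were higher (NR1D1, BHLHE40, PER1 and DBP) and 0 lower, against 5.12% and 8.86% of all genes tested. With library size alone in the scaling, CRY2, NR1D2 and PER2 still passed, with log2 fold changes of 0.53, 0.53 and 0.44 in place of 0.84, 0.84 and 0.75. The 10 genes had a median log2 fold change of 0.84, against -0.03 over all genes tested. Levels are given as CPM, the share of a library's counts after scaling by edgeR's TMM method, and TPM, the deposited values per length, is used where genes are compared with each other.

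**Figure D1:**
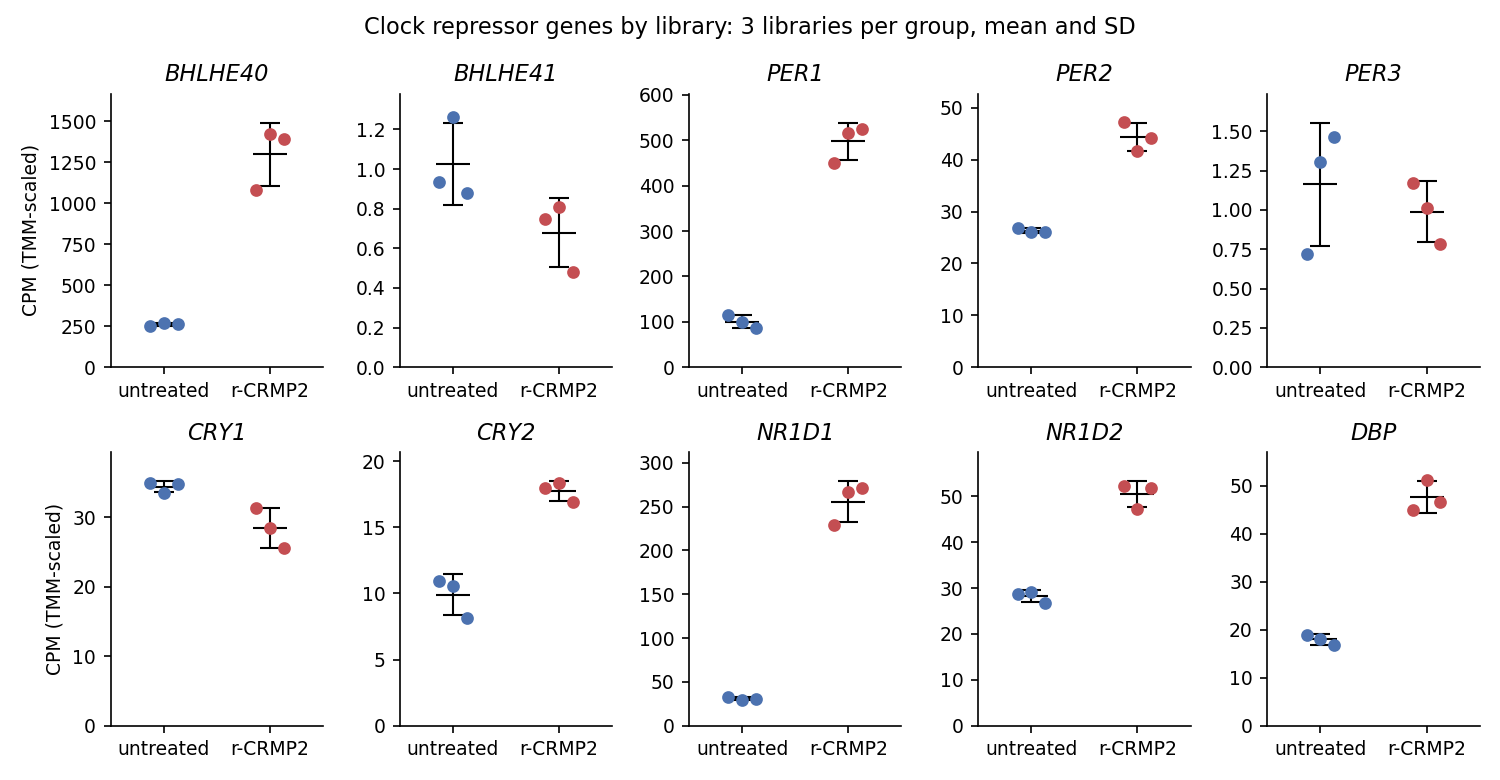
CPM (TMM-scaled) of each of the 10 genes in the 3 untreated (blue) and 3 r-CRMP2 (red) libraries, with the group mean and SD in black and every axis starting at 0. The red points lie above all blue points for 7 genes, below them for CRY1 and BHLHE41, and among them for PER3. Over all genes tested, the groups did not overlap for 64.2%, with 30.9% higher and 33.3% lower.

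**Figure D2:**
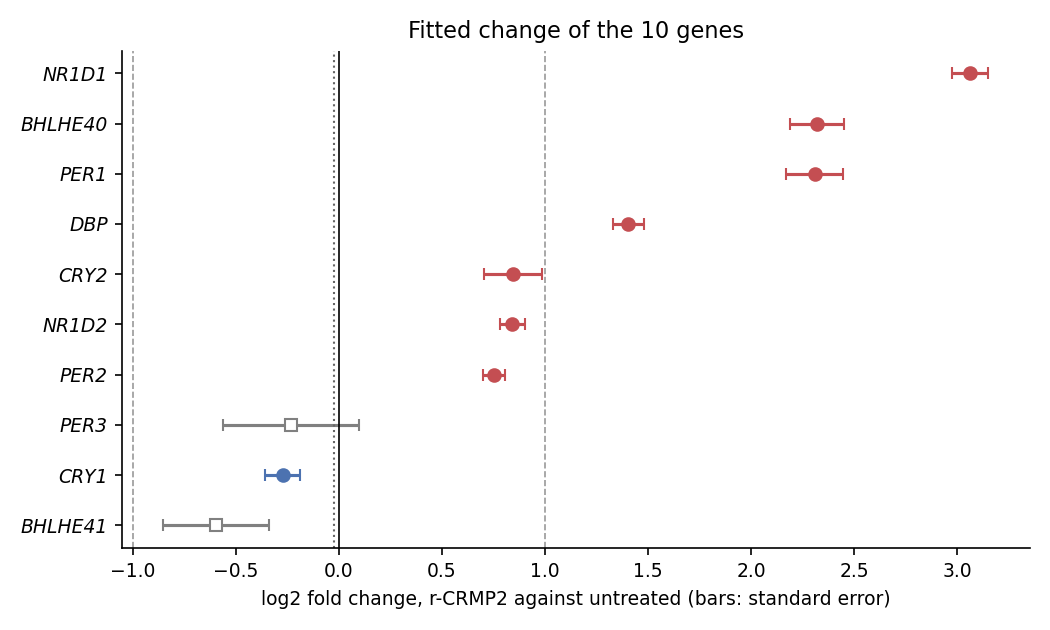
Fitted log2 fold change of each gene with its SE. Filled circles passed the adjusted p-value threshold and open squares did not, dashed lines mark a log2 fold change of 1 in either direction, and the dotted line is the median of all genes tested. NR1D1 lies farthest to the right at 3.06, and BHLHE41 farthest to the left at -0.60 with a wide error.

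The start regions of 5 of these genes are shown first so that the letters searched for E-boxes can be read. These are the regions of both BHLHE genes, the leading PER gene, and both NR1D genes, of which NR1D1 had no CACGTG here. Each is 300 bases from RefSeq (GRCh38.p14), from 250 bases before to 50 after the annotated start, written 5′ to 3′ on the strand of the gene. Capitals mark each match to the E-box CACGTG, or to ACGTG on either strand, the core of the element bound by hypoxia-inducible factors. Every CACGTG also holds ACGTG on both strands.
BHLHE40, chr3:4979187-4979486, plus strand: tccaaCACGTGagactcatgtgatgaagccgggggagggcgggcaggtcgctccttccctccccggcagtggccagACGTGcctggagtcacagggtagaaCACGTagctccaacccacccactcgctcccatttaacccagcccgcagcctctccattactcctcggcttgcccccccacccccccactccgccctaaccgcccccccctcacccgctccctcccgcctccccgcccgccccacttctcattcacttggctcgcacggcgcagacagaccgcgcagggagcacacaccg
BHLHE41, chr12:26124988-26125287, minus strand: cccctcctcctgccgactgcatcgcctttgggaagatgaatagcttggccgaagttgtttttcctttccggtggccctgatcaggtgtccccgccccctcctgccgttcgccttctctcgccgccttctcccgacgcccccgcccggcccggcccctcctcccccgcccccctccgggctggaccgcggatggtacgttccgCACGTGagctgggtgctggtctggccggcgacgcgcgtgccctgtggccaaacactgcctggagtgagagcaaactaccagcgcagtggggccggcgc
PER1, chr17:8152355-8152654, minus strand: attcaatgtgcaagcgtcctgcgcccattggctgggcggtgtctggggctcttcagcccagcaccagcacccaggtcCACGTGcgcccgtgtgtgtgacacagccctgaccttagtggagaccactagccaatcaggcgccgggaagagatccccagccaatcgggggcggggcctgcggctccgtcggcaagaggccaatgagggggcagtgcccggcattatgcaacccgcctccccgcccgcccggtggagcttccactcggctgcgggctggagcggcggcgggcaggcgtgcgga
NR1D1, chr17:40100540-40100839, minus strand: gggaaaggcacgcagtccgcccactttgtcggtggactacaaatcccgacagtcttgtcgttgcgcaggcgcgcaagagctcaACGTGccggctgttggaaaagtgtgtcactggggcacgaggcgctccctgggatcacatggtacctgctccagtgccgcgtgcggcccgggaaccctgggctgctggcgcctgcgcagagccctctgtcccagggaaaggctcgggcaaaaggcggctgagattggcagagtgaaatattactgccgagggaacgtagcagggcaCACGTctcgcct
NR1D2, chr3:23945871-23946170, plus strand: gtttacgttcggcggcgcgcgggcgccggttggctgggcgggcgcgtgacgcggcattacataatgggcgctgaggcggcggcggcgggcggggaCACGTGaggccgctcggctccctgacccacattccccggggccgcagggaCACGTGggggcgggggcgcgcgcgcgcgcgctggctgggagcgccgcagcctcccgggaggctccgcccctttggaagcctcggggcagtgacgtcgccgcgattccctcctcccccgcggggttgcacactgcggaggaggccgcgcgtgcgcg

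The E-box of BHLHE40 begins at base -245, that of its paralog BHLHE41 at -48, that of PER1 at -173 and those of NR1D2 at -155 and -105, counted from the annotated start of the window shown. Another window of NR1D2, chr3:23945036-23945335, held no CACGTG or ACGTG. RefSeq gave 13 such windows for the 10 genes. CACGTG was found in the windows of 4 of the 10 genes, in 4 of 13 windows, against 7.26% of all 35116 windows. ACGTG lay outside CACGTG in 6 of 13 windows, those of BHLHE40, PER2, CRY1, CRY2 and NR1D1, against 15.5% of all windows. E-box variants other than CACGTG were not searched for, so such a match can lie within one. The D-box TTATGTAA, which DBP binds, was sought on either strand. It was found in 2 of 13 windows, 1 of those of PER3 and the NR1D2 window shown, against 0.886% of all windows. The cAMP response element TGACGTCA was found in 0 of 13 windows, against 1.85% of all windows. BHLHE40 and BHLHE41 each held 1 CACGTG, and the window of DBP held no CACGTG or ACGTG. Bases outside these windows were not searched for any of the motifs. Whether these matches bear on the changes of level was not tested. A match is a string of letters and was not tested as a binding site, and these positions are in another build than the deposited ones.

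BHLHE40 encodes a basic helix-loop-helix repressor and was the most abundant of the 10 genes in both groups. Its CPM was 249, 270.3 and 261 in untreated replicates 1, 2 and 3, and 1078, 1424 and 1392 in r-CRMP2 replicates 1, 2 and 3. The lowest treated library stood far above the highest untreated library. The mean rose from 260.1 ± 10.6 to 1298 ± 191 CPM (SD, n = 3 per group), a log2 fold change of 2.32 with an SE of 0.13 and an edgeR adjusted p = 2.05e-13. Ranked by TPM among the 44591 genes listed, BHLHE40 (chromosome 3, 5021097 to 5026866, plus strand, in the deposited hg19 coordinates) stood between places 603 and 691 in untreated libraries and between 165 and 189 with r-CRMP2. An antisense RNA, BHLHE40-AS1, overlaps its first 550 bases on the opposite strand. It had 46 to 65 counts in the untreated and 43 to 53 in the treated libraries, and did not pass the test (log2 fold change -0.01, edgeR adjusted p = 0.969).

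BHLHE41 encodes the paralog of BHLHE40 and was barely expressed. It had 26, 31 and 24 counts in untreated replicates 1, 2 and 3 and 16, 16 and 11 in r-CRMP2 replicates 1, 2 and 3. All treated libraries were below all untreated ones, which also holds for 33.3% of all genes tested (higher for 30.9%, either way for 64.2%). The level was 1.03 ± 0.208 CPM in untreated and 0.679 ± 0.176 CPM in treated cells (SD, n = 3 per group). With so few counts the difference did not pass the test (log2 fold change -0.60, SE 0.26, edgeR adjusted p = 0.16). When libraries were scaled by their size alone, which moved the median of all genes by -0.31, it did pass (log2 fold change -0.90, edgeR adjusted p = 0.0322). Within a library, the TPM of BHLHE40 was 266 to 370.4 times that of BHLHE41 in untreated cells and 1792 to 3621 times with r-CRMP2.

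PER1 encodes a period protein that is also known to respond quickly to cAMP and glucocorticoid signals, and was the leading PER gene. It stood at 115, 99.8 and 86.7 CPM in untreated replicates 1, 2 and 3, and at 450.3, 516 and 526 CPM in r-CRMP2 replicates 1, 2 and 3. The lowest treated library was several-fold above the highest untreated one. PER1 (chromosome 17, 8043788 to 8055753, minus strand) rose from 100.5 ± 14.1 to 497 ± 41.1 CPM (SD, n = 3 per group), with a log2 fold change of 2.31 with an SE of 0.14 and an edgeR adjusted p = 2.32e-13. The microRNA gene MIR6883 lies inside it on the same strand. MIR6883 had 0, 0 and 3 counts in the untreated and 21, 31 and 20 in the treated libraries, and whether these reads came from PER1 itself cannot be told.

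PER2 encodes a period protein that partners CRY in the repressor complex, and it rose less. Its CPM was 26.9, 26 and 26.1 in untreated replicates 1, 2 and 3 and 47.2, 41.7 and 44.2 in r-CRMP2 replicates 1, 2 and 3. Untreated libraries lay within 1 CPM of each other, and all treated ones were above them. PER2 (chromosome 2, 239152679 to 239197207, minus strand) had a log2 fold change of 0.75 with an SE of 0.05 and an edgeR adjusted p = 7.26e-08. PER3, with the lowest mean TPM of the 10 genes in both groups, had 20, 32 and 40 counts in the untreated and 25, 20 and 18 in the treated libraries. Its groups overlapped and it did not pass the test (log2 fold change -0.23, SE 0.33, edgeR adjusted p = 0.585). Genes that the files name only by an identifier overlap PER2, PER3 and CRY1 on the opposite strand. ENSG00000225057.2 shares 11596 bases with PER2 and had 2 to 10 counts in a library, ENSG00000236266.1 shares 17101 bases with PER3 and had 0 to 5, and ENSG00000257548.1 shares 560 bases with CRY1 and had 0 in every library.

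The cryptochromes, which are the repressors that hold the CLOCK and ARNTL pair inactive, moved in opposite directions. CRY2 stood at 11, 10.6 and 8.11 CPM in untreated replicates 1, 2 and 3 and at 18, 18.4 and 16.9 CPM in r-CRMP2 replicates 1, 2 and 3. All treated libraries were higher, and CRY2 (chromosome 11, 45868669 to 45904799, plus strand) had a log2 fold change of 0.84 with an SE of 0.14 and an edgeR adjusted p = 3.9e-06. CRY1 stood at 34.9, 33.5 and 34.7 CPM in untreated replicates 1, 2 and 3 and at 31.4, 28.4 and 25.6 CPM in r-CRMP2 replicates 1, 2 and 3. All treated libraries were lower, a smaller shift on the log2 scale than that of any rising gene. CRY1 (chromosome 12, 107385142 to 107487635, minus strand) fell by 0.27 on the log2 scale with an SE of 0.09 and an edgeR adjusted p = 0.00795. This call rested in part on r-CRMP2 replicate 3, the library with the lowest CRY1. Without it the log2 fold change was -0.20 and the test was not passed (edgeR adjusted p = 0.0752). That library had the most counts but the fewest genes with a count, 22438 against 25152 to 26302 in the others. What this means for the call was not tested. With library size alone the log2 fold change of CRY1 was -0.58.

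NR1D1 encodes REV-ERB alpha, a heme-binding nuclear receptor that silences ARNTL and many metabolic genes, and had the largest rise of the 10. It had 32.3, 29.1 and 30.3 CPM in untreated replicates 1, 2 and 3, and 229, 266 and 271 CPM in r-CRMP2 replicates 1, 2 and 3. The mean rose from 30.6 ± 1.62 to 256 ± 23.1 CPM (SD, n = 3 per group), a log2 fold change of 3.06 with an SE of 0.09 and an edgeR adjusted p = 1.91e-15. By p-value it stood at place 1 of the 16222 genes tested, and by size of rise at place 38. NR1D1 (chromosome 17, 38249037 to 38256978, minus strand) overlaps the end of THRA, a thyroid hormone receptor gene on the opposite strand, by 1084 bases, and the library kit named in the methods does not mark strand. Reads in that stretch cannot be assigned to either gene. THRA rose far less, from 43.5 ± 2.27 to 64.9 ± 2.9 CPM (SD, n = 3 per group, log2 fold change 0.58, edgeR adjusted p = 8.25e-07; 0.27 with library size alone). Within a library the TPM of NR1D1 was 0.798 to 0.948 times that of THRA in untreated cells and 4.42 to 5.43 times with r-CRMP2.

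NR1D2 encodes REV-ERB beta and stood at 28.7, 29.3 and 26.7 CPM in untreated replicates 1, 2 and 3, close to NR1D1 before treatment on this scale. It reached 52.3, 47.3 and 51.9 CPM in r-CRMP2 replicates 1, 2 and 3, above every untreated library. NR1D2 (chromosome 3, 23986751 to 24022109, plus strand) had a log2 fold change of 0.84 with an SE of 0.06 and an edgeR adjusted p = 1.6e-08. DBP, a PAR bZIP activator whose gene is a classical direct target of CLOCK and ARNTL, stood at 19, 18.1 and 16.8 CPM in untreated replicates 1, 2 and 3. It stood at 44.9, 51.3 and 46.7 CPM in r-CRMP2 replicates 1, 2 and 3, again without overlap. For DBP (chromosome 19, 49133817 to 49140807, minus strand) the log2 fold change was 1.40 with an SE of 0.08 and an edgeR adjusted p = 5.16e-11.

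Compared per length by TPM, the untreated order was BHLHE40 (209 ± 11.6), PER1 (52 ± 6.73), NR1D1 (26.8 ± 1.01), CRY1 (25.4 ± 0.363), DBP (24.2 ± 1.29), NR1D2 (12.5 ± 0.622), PER2 (10.1 ± 0.0419), CRY2 (5.52 ± 0.841), BHLHE41 (0.662 ± 0.142) and PER3 (0.445 ± 0.154), each as mean TPM ± SD, n = 3. The libraries of CRY1 and DBP overlapped, and every other neighbouring pair in this order was separated. Some of these gaps were narrow. NR1D1 had at least 25.9 TPM and CRY1 at most 25.8, and BHLHE41 had at least 0.568 TPM and PER3 at most 0.56. With r-CRMP2 the leading genes stayed BHLHE40 (829 ± 96.5), PER1 (205 ± 13) and NR1D1 (179 ± 12.5 TPM). CRY1, at 16.8 ± 2.15 TPM, stood below DBP (51 ± 1.11 TPM) and NR1D2 (17.9 ± 1.77 TPM), though its libraries overlapped those of NR1D2. BHLHE41 and PER3 also overlapped. BHLHE40 made up 54.2% to 58.7% of the summed TPM of the 10 genes in untreated libraries and 60.3% to 64.1% with r-CRMP2. NR1D1 made up 6.85% to 7.69% and then 13.1% to 14%, and CRY1 6.62% to 7.2% and then 1.08% to 1.62%. That sum itself rose, from between 358 and 378 to between 1193 and 1418 TPM, so a share can fall more than its gene. The shares of PER2, CRY2, NR1D2 and DBP were lower too, although these genes rose.

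Paralogs can also be compared within a library, where scaling between libraries plays no part. The TPM ratio of PER1 to PER2 was 5.14 ± 0.645 in untreated and 15.2 ± 2.04 in r-CRMP2 libraries (SD, n = 3 per group). That of NR1D1 to NR1D2 was 2.15 ± 0.152 and 10.1 ± 1.26. CRY2 to CRY1 went from 0.217 ± 0.0356 to 0.473 ± 0.0356, so CRY1 remained the more abundant cryptochrome in every library. On the log2 scale the treated ratios were higher by 1.56 (SE 0.16), 2.22 (SE 0.12) and 1.13 (SE 0.16), and by 2.92 (SE 0.33) for BHLHE40 to BHLHE41. No library of one group fell within the range of the other for any of these pairs. An exact two-sided permutation test of each gave p = 0.1, the smallest that 3 against 3 libraries allow, and the pairs were chosen after the values were seen.

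**Figure D3:**
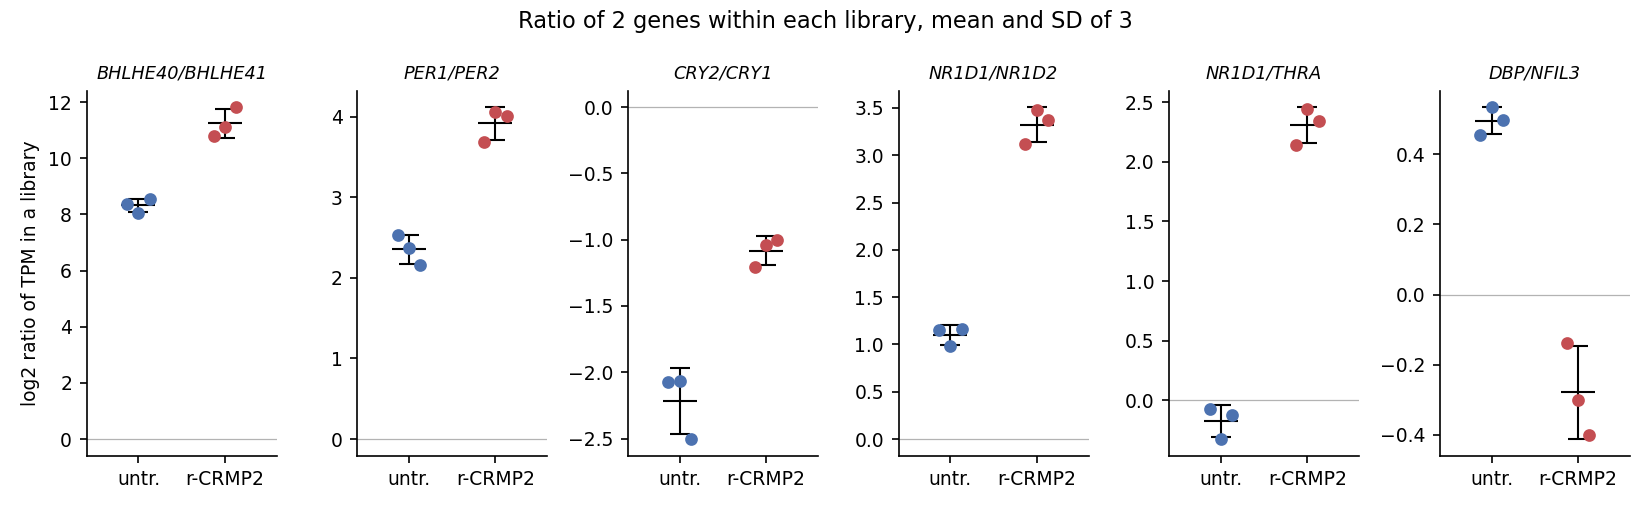
Log2 ratio of the TPM of 2 genes in the same library, for 3 untreated (blue) and 3 r-CRMP2 (red) libraries, with mean and SD. A line marks equal TPM, the vertical scales differ between panels, and the groups are separate in all 6 panels. The DBP to NFIL3 panel is the only one of the 6 in which the ratio is lower with r-CRMP2, going from 1.41 to 0.826 as a mean ratio.

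The other arms of the clock were described with 4 lists of 35 genes, of which 31 were tested: 16 were higher, 8 lower and 7 did not pass, with a median log2 fold change of 0.21. Over all genes tested 28.2% were higher and 30.1% lower, and each list count here is to be read against those shares. In the list of activators, 1 of 5 genes tested was higher and 1 lower. RORA, the nuclear receptor that activates ARNTL at the sites where NR1D1 represses it, rose from between 4.79 and 6.65 CPM in the untreated libraries to between 9.86 and 12.3 CPM in the treated ones (log2 fold change 0.97, SE 0.17, edgeR adjusted p = 8.08e-06). ARNTL2, a paralog of ARNTL, fell by 0.43 on the log2 scale (edgeR adjusted p = 0.00117). The genes of the loop's positive arm, CLOCK, NPAS2 and ARNTL, did not pass, with log2 fold changes from -0.17 to 0.11 and adjusted p-values from 0.237 to 0.817 (named after their values were seen). With library size alone, 3 activators were lower and 1 higher, and the log2 fold change of ARNTL2 was -0.75.

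Among PAR bZIP factors and other output genes, 3 of 5 genes tested were higher and 2 lower, and 2 of them were past both thresholds. NFIL3, the repressor that opposes DBP at D-boxes, rose from between 16.1 and 18.7 CPM to between 66.8 and 85.5 CPM (log2 fold change 2.18, SE 0.13, edgeR adjusted p = 9.61e-13). This rise was larger than that of DBP, and the TPM ratio of DBP to NFIL3 was lower in all 3 treated libraries than in any untreated one, at 1.41 ± 0.0381 untreated and 0.826 ± 0.0768 treated (SD, n = 3 per group, exact permutation p = 0.1, the smallest the design allows). NOCT, a nocturnin gene with strongly rhythmic expression, rose by 1.43 on the log2 scale (edgeR adjusted p = 2.18e-10). USP2, a deubiquitinase, fell by 0.64 on the log2 scale (edgeR adjusted p = 0.00206). CIART and HLF were under the filter on low counts.

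Of the kinases and ubiquitin ligases that set the stability of PER and CRY proteins, 6 of 12 genes tested were higher and 4 lower. CSNK1E, a casein kinase that marks PER proteins for degradation, rose from between 189 and 229.7 CPM to between 429 and 482 CPM (log2 fold change 1.15, SE 0.10, edgeR adjusted p = 1.91e-10). Its paralog CSNK1D rose less, from a mean of 139.7 to 174.6 CPM (log2 fold change 0.32, edgeR adjusted p = 0.000104). BTRC, an F-box protein that recognises phosphorylated PER, fell from between 18.9 and 19.4 CPM to between 7.18 and 9.46 CPM (log2 fold change -1.25, SE 0.12, edgeR adjusted p = 1.68e-08). Its more abundant paralog FBXW11 rose from a mean of 75.3 to 92.9 CPM (log2 fold change 0.30, edgeR adjusted p = 0.000402). The rises of CSNK1D and FBXW11 were close in size to the -0.31 by which library size alone moved the median of all genes. CSNK1E and BTRC were past the fold threshold, in opposite directions. With library size alone CSNK1E was not (0.84), and neither passed a test against a fold change of 2 (edgeR adjusted p = 0.103 and 0.0846). In the list of corepressors, 6 of 9 genes were higher and 1 lower, none past the fold threshold. SIRT1, a deacetylase that acts on ARNTL and PER2, rose by 0.66 on the log2 scale (edgeR adjusted p = 5.42e-07), and NCOR1, the corepressor of the REV-ERB receptors, fell by 0.20 on the log2 scale (edgeR adjusted p = 0.0136). The NCOR1 call was lost without r-CRMP2 replicate 2 (log2 fold change -0.13, edgeR adjusted p = 0.0609) and without untreated replicate 2 (-0.18, edgeR adjusted p = 0.0587). With library size alone the log2 fold change of SIRT1 was 0.35 and that of NCOR1 -0.51. The medians of these lists, 0.16 and 0.21, changed sign with library size alone (-0.15 and -0.10), when 2 genes of each list were higher.

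**Figure D4:**
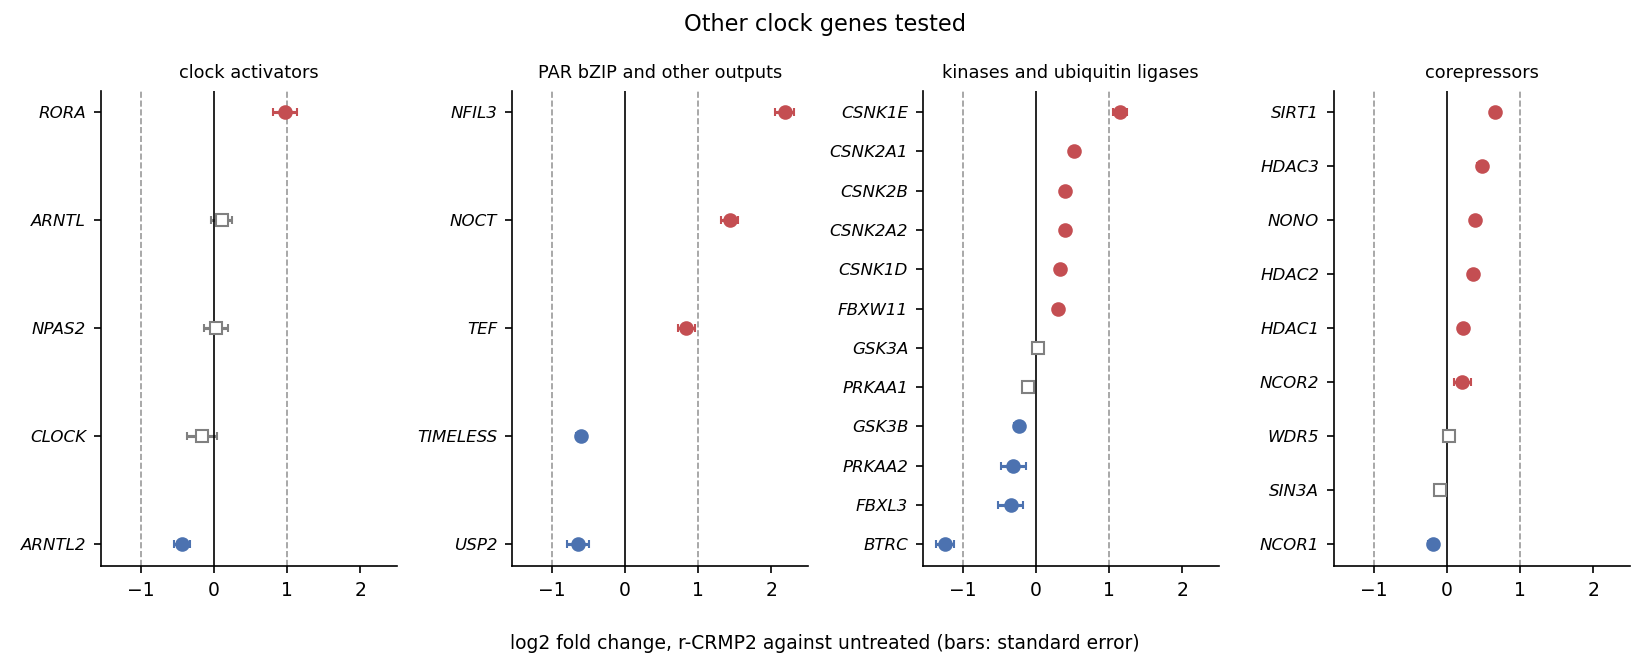
Fitted log2 fold change and SE of the 31 other clock genes tested, in 4 lists. Filled circles passed the adjusted p-value threshold, open squares did not, and dashed lines mark a log2 fold change of 1 in either direction. NFIL3, NOCT and CSNK1E lie past the right line and BTRC past the left one, while ARNTL, NPAS2 and CLOCK sit around 0.

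Genes outside the 10 with the most similar pattern over the 6 libraries were sought by Pearson correlation of log2 CPM among 9386 genes of at least 10 CPM on average, as a description. The closest to BHLHE40 were EFNA1 (r = 0.9997), RHOB (0.9997) and ETS2 (0.9996), and 2073 genes had r over 0.95. For CRY1 they were PEX6, CCDC117 and WNK2 (r = 0.996, 0.996 and 0.995), with 65 genes over 0.95. For BHLHE41 they were SAC3D1, NBR1 and MUS81 (r = 0.973, 0.969 and 0.969), with 9 genes over 0.95. The 6 libraries form 2 groups, and the genes closest to BHLHE40 and CRY1 differed between them, while SAC3D1 and NBR1 did not pass the test (edgeR adjusted p = 0.0532 and 0.306).

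The cell type label was checked against marker genes. The keratins KRT8 and KRT18 were abundant, PAX8 stood at 4.06 CPM in untreated cells, EPCAM at 4.44, MUC16 at 42.7 and KRT19 at 1.40 CPM, and CDH1 and WT1 were at 0.125 and 0.0739 CPM. Of 6 epithelial markers tested, KRT18 was higher (log2 fold change 0.20, edgeR adjusted p = 0.011) and MUC16 lower (-0.36, edgeR adjusted p = 0.0133) with r-CRMP2. Of 8 fibroblast markers tested, 4 were higher and 2 lower, against 58.2% of all genes tested that passed in either direction. Their summed level was 545 to 609.7 CPM in untreated and 477 to 493 CPM in treated libraries, most of it COL1A1, with FAP at 0.263 CPM, and its part in the results was not tested.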

How the data were processed

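RNA from 3 untreated and 3 r-CRMP2-treated A2780 cultures was sequenced as poly(A)-selected, paired-end libraries. Per the labels, the submitters' processing notes name FastQC, HISAT2, DESeq2 and hg19, while the counting tool and annotation are not given in the sources used here. The kit named in the methods does not mark strand. The authors deposited raw counts per gene for each library, and TPM values that differed by at most 4.72e-06 from counts divided by the deposited length and rescaled. Spreadsheet conversion had turned 27 gene names into dates, none of them a gene described here.

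Counts were compared with edgeR 4.0.16 (limma 3.58.1, R 4.3.3): TMM normalization, filterByExpr, glmQLFit and glmQLFTest, two-sided, with Benjamini-Hochberg adjustment over 16222 genes. Each SE was computed from log2 CPM within the groups (prior count 2). TMM factors were 1.10 to 1.12 in untreated and 0.878 to 0.922 in treated libraries. With library size alone, 2171 genes were higher and 8449 lower in place of 4574 and 4875. Replicate libraries differed by more than sampling noise (chi-square 3.62 to 10.3 per degree of freedom), so each was counted as 1 sample. Counts were also simulated for 15992 genes. Of those simulated with a log2 fold change of 2 in size, 66 of 66 were called, 65 of 66 at 1 and 36 of 68 at 0.5. In addition, 13 unchanged genes were called. The simulation gave every gene the same spread between replicates, changed few genes and kept the groups alike in composition. In the real data 58.2% of genes passed and TMM factors differed by group, so these rates need not hold for them.

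Named were the 10 genes, genes overlapping them, other clock genes past both thresholds, the largest passing rise and fall of each list, and the 3 genes most correlated with BHLHE40, BHLHE41 and CRY1. CSNK1D and FBXW11 were named as paralogs of CSNK1E and BTRC after their values were seen. The genes and lists were chosen with earlier results of these data known, and 1 gene of the activator list is not reported here. The alternatives were DESeq2 1.42.0, RLE factors, library size alone, 2 other low-count filters, a replicate block, a test against a fold change of 2, and leaving out each library. The ratios within libraries were added after the data were seen.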

Additional observations from a re-analysis of the deposited data

How the results depend on the processing

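Of the 10 genes, none changed direction in any alternative run, and the count of 7 higher genes and that of 4 higher genes past both thresholds were the same in all of them. The test against a fold change of 2 was run only for the second count. With library size alone, BHLHE41 also passed as lower (-0.90), which made 2 lower genes. The number of lower genes ranged from 0 to 1 when each library was left out, because CRY1 lost its call without r-CRMP2 replicate 3. Its log2 fold change ranged from -0.34 to -0.20 in those fits. The replicate numbers gave no evident pairing: same-numbered libraries deviated from their group means with correlations of -0.02, 0.0038 and -0.03 across genes. With the replicate number as a block, BHLHE40 had a log2 fold change of 2.31, NR1D1 3.06 and CRY1 -0.28, and no call among the 10 genes changed.

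For the lists, library size alone gave 3 lower activators (median -0.28), a median of 0.53 for output genes, 2 higher kinases and ubiquitin ligases (median -0.15), and 2 higher and 3 lower corepressors (median -0.10). It lowers every fold change by construction, since it drops the TMM factors. Without a low-count filter the kinase and ligase median was 0.29, with 1 more gene in the fit. With each library left out, lower activators ranged from 1 to 2, the activator median from -0.0677 to 0.18 (0.0299 with all libraries), lower corepressors from 0 to 1 and the corepressor median from 0.22 to 0.30. Why these values moved was not tested. BHLHE41 and PER3 had at most 40 counts in a library, which limits what could be detected for them.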
